A study of Mus musculus with 8 samples.

Results

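The 35 genes described here act in mitosis and in building the spindle: B-type and A-type cyclins with Cdk1, mitotic kinases, spindle checkpoint proteins, kinetochore proteins, kinesins, the chromosomal passenger complex, cytokinesis factors and condensin. They were chosen by name as regulators and components of late cell cycle stages, and all 35 were matched by Ensembl ID among the 54446 genes of the count tables. All 35 passed the filter on low counts that left 21782 genes for testing. Nuclear RNA had been sequenced from embryonic stem cells of C57BL/6 mice, grown in serum with LIF, the GSK3 inhibitor CHIR99021 and the MEK inhibitor PD0325901. Mettl14 or Mettl3 was knocked out conditionally (cKO) in cells that had controls of their own; each knockout with its controls is called a line here. METTL3 is the catalytic subunit and METTL14 the RNA-binding partner in the complex that places N6-methyladenosine on RNA. The study asked how nuclear RNA changes upon either knockout. The 8 libraries form 4 groups of 2, a control and a cKO group for each of the genes. All 4 groups share the strain and the medium. The exons removed, the way and time of deletion, and whether the libraries of a group come from separate cultures, are details not given in the sources used here. Accordingly, p-values reflect only the spread between these particular samples, and that spread may be technical.

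Cells enter mitosis when cyclin-bound CDK1 is switched on. Spindle microtubules then attach to chromosomes at kinetochores, and the spindle checkpoint holds back the anaphase-promoting complex and its activator CDC20 until every kinetochore is attached. Separase then cuts cohesin, and the central spindle guides cytokinesis. Transcripts of these genes rise together in G2 and M phase, driven largely by the MuvB complex with B-MYB and FOXM1 at CHR elements and by NF-Y at CCAAT boxes. Mouse embryonic stem cells cycle fast and express such genes at high levels. The libraries hold RNA of many cells together. Fewer cells in G2 or mitosis, less RNA per cell and another mix of cell types cannot be told apart in these libraries.

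Total counts ran from 17235889 to 20086128 per library, and the smallest count of any of the 35 genes was 361. Levels are given as CPM, which are counts scaled to a common library size with TMM factors, and changes as log2 fold changes with their standard error (SE). Each test is edgeR's quasi-likelihood test, with p-values adjusted by Benjamini and Hochberg's method over all 21782 genes. Genes whose log2 CPM averaged 3 or more, 10099 in all and including all 35, are called abundant genes. A gene is said to have risen or fallen at an adjusted p under 0.05. The targeted genes were lower in their own knockout: Mettl14 fell by 0.96 ± 0.07 in Mettl14 cKO, to 51.3% of control, and Mettl3 by 0.95 ± 0.08 in Mettl3 cKO, to 51.9% of control (edgeR's quasi-likelihood test, adjusted p = 1.23e-26 and 1.21e-21). Of all calls, 44.5% were rises in Mettl14 cKO and 72.3% in Mettl3 cKO. These shares depend on how libraries are scaled: with TMM factors from abundant genes alone they were 56.1% and 41.6%, and with upper-quartile scaling 50.5% and 31.8%. With these same scalings the share of rises among calls went from 38.4% to 62.5% and 60.6% for the difference between the knockouts. Between the controls it went from 49.7% to 32.4% and 37.4%.

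Some counts may be shared with other genes, because neither the strand setting of the counting nor its handling of reads with several matches is given in the sources used here. The exons of 7 of the 35 genes overlap those of a gene on the opposite strand: Ccna2 (with Exosc9), Plk1 (Gm44985), Cdc20 (Elovl1), Kif4 (Pdzd11), Kif20a (Cdc23), Prc1 (Rccd1) and Ncapg (Lcorl). In the library where it was highest against the gene itself, the count of Exosc9 was 134% of that of Ccna2, Cdc23 105% of Kif20a, Lcorl 61.3% of Ncapg, Rccd1 23.5% of Prc1 and Pdzd11 10.4% of Kif4. Elovl1 held 115 to 424 counts, where Cdc20 held at least 794, and Gm44985 held at most 9. For Ndc80, the transcribed pseudogene 2700099C18Rik matched 763 bases at 92.7% identity, and its count reached 55.6% of that of Ndc80. For Cenpf, Zmynd8 matched 207 bases at 92.3% identity in reverse orientation, and its count reached 30.9% of that of Cenpf. Each single pseudogene of Ccnb1 held at most 0.772% and that of Plk1 at most 2.12% of the gene's own count.

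The promoters are shown here because late cell cycle genes are driven largely through CHR elements and CCAAT boxes, as described above. The 35 genes were chosen by name from that class, so the share of these motifs says nothing about the knockouts. Promoters of 300 bases, 250 before and 50 after the start site, were taken from RefSeq (build GRCm38.p6) for 29 of the 35 genes, with 31 start sites. Ccna2, Tpx2, Aurkb, Incenp, Kif20a and Smc4 had no entry. In the stretches below, read 5′ to 3′ on the strand of the gene, capitals mark the CHR hexamer TTTGAA or its reverse complement TTCAAA and the CCAAT box or its reverse complement ATTGG. Each stretch ends just before the start site, except that of Ccnb2, which runs to base 12 after it, and that of Mki67, which ends 81 bases before it. Ccnb2, Mki67 and Nuf2 were among the genes with the largest falls in Mettl14 cKO, and Top2a, Kif11, Cdc20 and Ncapg fell in both knockouts. Cdk1 fell moderately in both, and Espl1 did not pass the test in Mettl14 cKO. Their positions are chr9:70421543-70421654 (minus strand), chr10:69352913-69353012 (minus strand), chr11:99024190-99024299 (minus strand), chr7:135716460-135716569 (minus strand), chr19:37376302-37376381 (plus strand), chr4:118437344-118437423 (minus strand), chr5:45669845-45669924 (plus strand), chr15:102296213-102296292 (plus strand) and chr1:169531465-169531544 (minus strand).
Ccnb2: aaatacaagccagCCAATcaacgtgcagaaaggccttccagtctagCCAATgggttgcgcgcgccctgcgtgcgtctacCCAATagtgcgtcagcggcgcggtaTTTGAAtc
Cdk1: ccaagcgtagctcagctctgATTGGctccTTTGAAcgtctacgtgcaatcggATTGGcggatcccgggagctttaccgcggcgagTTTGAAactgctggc
Top2a: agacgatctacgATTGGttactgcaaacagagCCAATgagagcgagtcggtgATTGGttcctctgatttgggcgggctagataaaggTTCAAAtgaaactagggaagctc
Mki67: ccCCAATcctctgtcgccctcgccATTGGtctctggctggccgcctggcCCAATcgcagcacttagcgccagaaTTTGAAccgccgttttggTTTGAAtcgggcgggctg
Kif11: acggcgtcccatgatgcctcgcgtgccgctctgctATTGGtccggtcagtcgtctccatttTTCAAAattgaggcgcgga
Cdc20: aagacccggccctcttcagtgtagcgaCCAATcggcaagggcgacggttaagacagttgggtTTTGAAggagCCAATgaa
Ncapg: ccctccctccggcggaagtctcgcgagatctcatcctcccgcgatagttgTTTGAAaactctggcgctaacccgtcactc
Espl1: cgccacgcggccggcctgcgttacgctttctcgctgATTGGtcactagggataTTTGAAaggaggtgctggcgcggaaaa
Nuf2: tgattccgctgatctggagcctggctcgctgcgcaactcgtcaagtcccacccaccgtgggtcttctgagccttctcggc
Ccnb2 shows the arrangement most plainly, with 3 CCAAT boxes followed by the CHR hexamer at the start site. Nuf2, whose fall was larger than that of Ccnb2, has no match in its window.

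Searched on both strands, with overlapping matches of different motifs counted for each, TTTGAA was found in 22 of the 29 genes (75.9%) and in 77.4% of their 31 promoters, against 17.9% of all 32851 promoters. Within 50 bases of the start site, a window set after the positions had been seen, 20 of 29 genes (69%) and 67.7% of their promoters held it, against 4.94% of all promoters. CCAAT was found in 23 of the 29 genes (79.3%), against 37.4% of all promoters. At least 2 CCAAT boxes were found in 14 genes (48.3%), against 11.7%, and 20 genes (69%) held both motifs, against 6.95%. The variant TTCGAA was found in Top2a, Bub1 and Bub1b (10.3%), against 1.56% of all promoters. Among the 29 genes, Ccnb1, Bub1, Mad2l1, Cenpe, Nuf2, Birc5 and Ncaph had no TTTGAA in the window. These are matches of letters, not measured binding sites. All 7 of these genes without TTTGAA fell in Mettl14 cKO, where 33 of all 35 genes fell. Espl1 and Anln, which were not called there, both held TTTGAA. A link between the motifs and the changes was not tested.

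**Figure D1:**
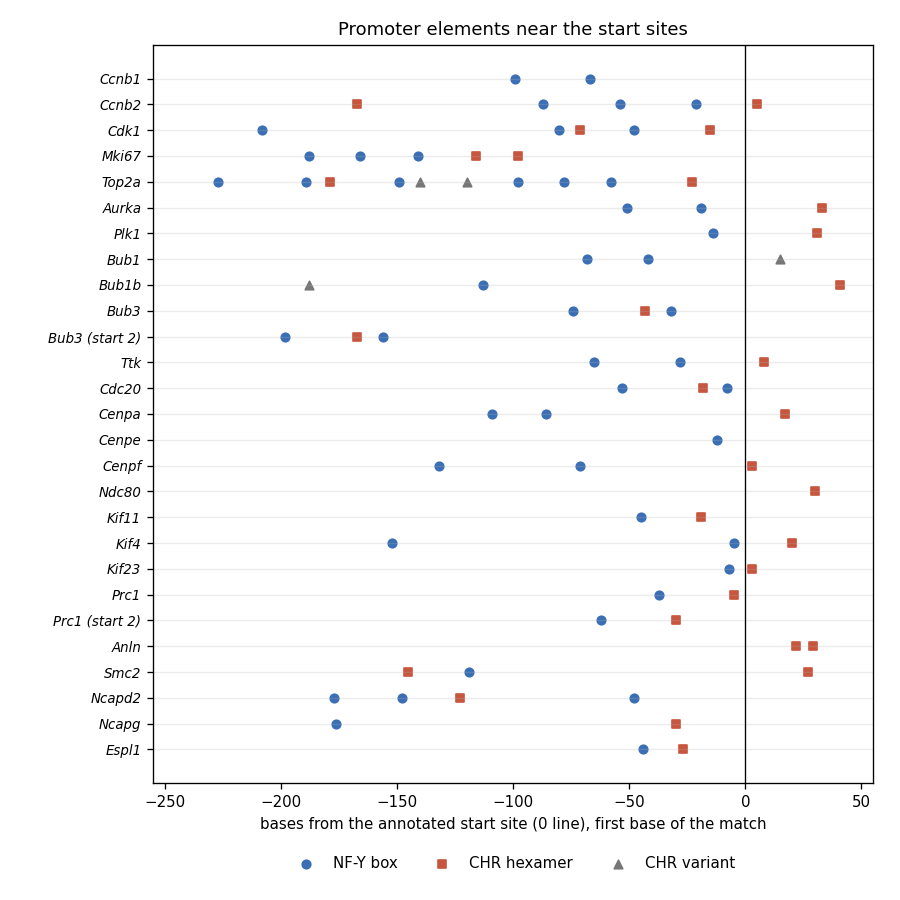
Positions of CCAAT boxes (circles), the CHR hexamer TTTGAA (squares) and the variant TTCGAA (triangles) in the 27 of 31 promoters with a match, as bases from the annotated start site (vertical line) to the first base of the match. The hexamers gather within 50 bases of the start site, where 20 of 29 genes hold one, and the CCAAT boxes lie mostly before it.

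Expression per length in the Mettl14 controls spanned from 189 ± 4.02 CPM per kilobase of exon (SD, n = 2) for Top2a, the topoisomerase that untangles sister chromatids, to 11.9 ± 0.832 for Aurkb. Condensin's paired ATPases followed Top2a, Smc4 at 123 ± 1.59 and Smc2 at 121 ± 1.36 CPM per kilobase, with a gap smaller than the sum of their SDs. Tpx2 (100.1 ± 0.484), Mki67 (88.8 ± 1.501), Incenp (74.4 ± 2.60), Cenpe (73.4 ± 0.0659) and Cenpf (71.1 ± 0.256) came next on this scale, and Incenp and Cenpe lay within the SD of Incenp. At the low end, Mad2l1 stood at 13.9 ± 0.136 and Nuf2 at 11.9 ± 0.0283 CPM per kilobase. The length used is that of all annotated exons of a gene merged, 8390 bases for Mad2l1, 6341 for Nuf2 and 2946 for Aurkb. Without division by length, their means in the Mettl14 controls were 116.5, 75.5 and 35.1 CPM, so the order depends on the annotated length. The 35 genes together made up 0.904% and 0.897% of the reads in the Mettl14 controls and 0.717% and 0.719% in Mettl14 cKO. In the Mettl3 line they took 0.577% and 0.576% in the controls and 0.505% and 0.512% in cKO, so both knockouts lay below their own controls.

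**Figure D2:**
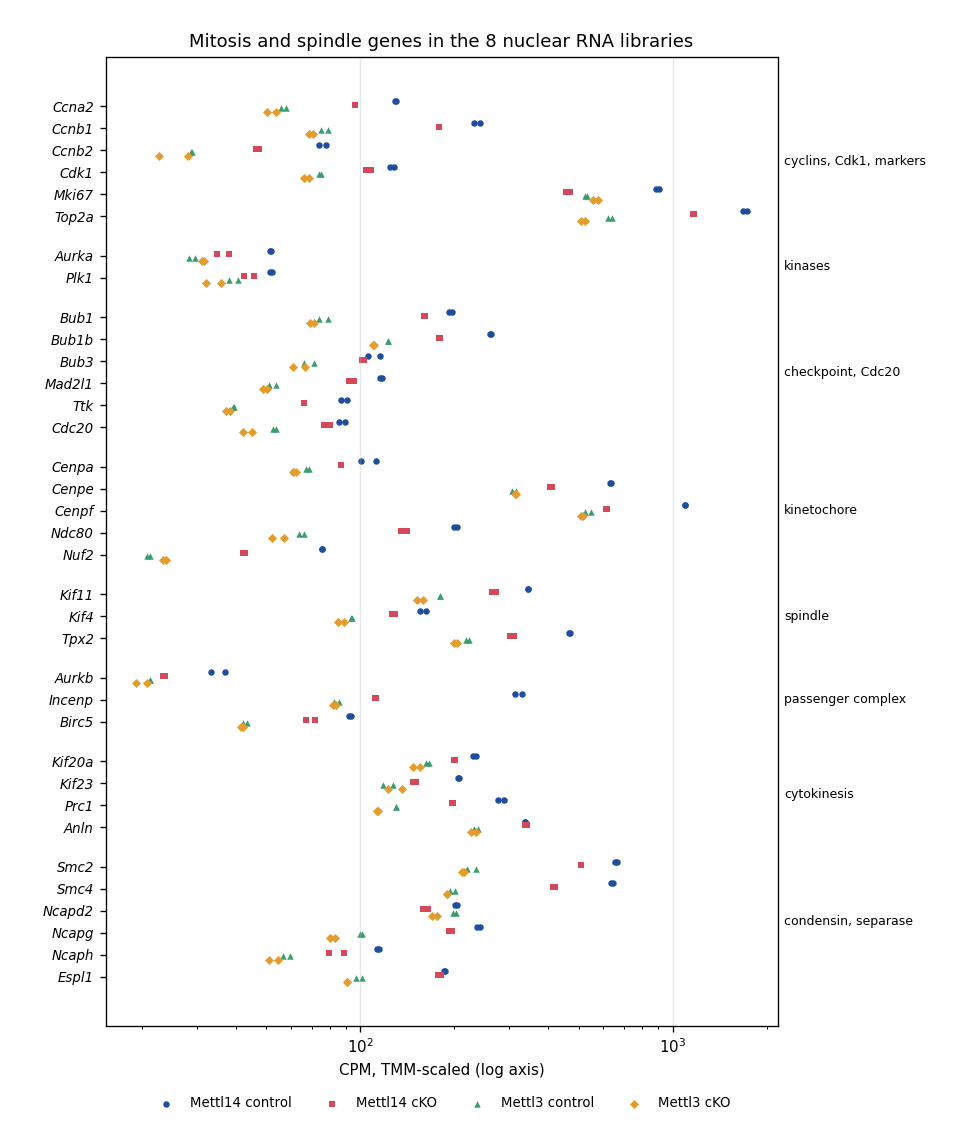
CPM on a log axis for each of the 35 genes in the 8 libraries, 2 points per group, in rows by role. For 32 genes the Mettl14 controls are highest, Mettl14 cKO is next and all 4 libraries of the Mettl3 line are lowest. Mki67, Anln and Ncapd2 depart from this order.

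In Mettl14 cKO, 33 of the 35 genes fell, 0 rose, and Anln and Espl1 did not pass the test. No gene rose at an unadjusted p under 0.05 in edgeR's test either, and DESeq2 called 0 rises and 34 falls. The median log2 fold change of the 35 genes was -0.43, with values from -1.52 to 0.01. For 34 genes both cKO libraries lay below both controls, and Anln was the exception. Among all tested genes 22.4% fell, 18.0% rose and 33.3% had both cKO libraries below both controls. Among abundant genes 40.9% fell and the median log2 fold change was -0.08.

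Cyclins, Cdk1 and the markers of proliferating cells fell in Mettl14 cKO, 6 of 6. Mki67, which encodes the Ki-67 protein that coats mitotic chromosomes, stood at 904 and 883 CPM in the Mettl14 controls and 469 and 458 in Mettl14 cKO, a fall of 0.95 ± 0.03 to 51.8% of control (adjusted p = 5.55e-69). Ccnb2, a B-type cyclin, stood at 78.0 and 73.6 CPM in the Mettl14 controls and 46.3 and 47.4 in Mettl14 cKO and fell by 0.69 ± 0.06 (adjusted p = 2.48e-20). Top2a stood at 1732 and 1680 CPM in the Mettl14 controls and 1169 and 1166 in Mettl14 cKO and fell by 0.55 ± 0.02 (adjusted p = 2.7e-47). In each of these genes the libraries of a group lay close together and the groups were far apart. Ccna2, the cyclin of S and G2 phase, fell by 0.43 ± 0.04 and Ccnb1, the main mitotic cyclin, by 0.41 ± 0.03. Cdk1, the kinase they activate, changed least of the group, with 128 and 124 CPM in the Mettl14 controls and 108 and 104 in Mettl14 cKO and a fall of 0.25 ± 0.04 (adjusted p = 1.53e-07).

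Both mitotic kinases fell. Aurka, the Aurora kinase of centrosomes and spindle poles, stood at 51.5 and 51.9 CPM in the Mettl14 controls and 38.0 and 34.9 in Mettl14 cKO and fell by 0.51 ± 0.07 (adjusted p = 2.55e-11). Plk1, the Polo kinase that acts from mitotic entry to cytokinesis, stood at 51.3 and 52.4 CPM in the Mettl14 controls and 42.5 and 45.8 in Mettl14 cKO and fell by 0.23 ± 0.06 (adjusted p = 0.0015). The groups did not overlap for either kinase, but the call of Plk1 was lost without Mettl14 cKO replicate 1 (log2 fold change -0.17, adjusted p = 0.0758). It was also lost with TMM factors from abundant genes (-0.15, adjusted p = 0.0545). Over all alternatives its adjusted p lay between 0.000326 and 0.0821.

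All 6 genes of the spindle checkpoint and Cdc20 fell, with a median log2 fold change of -0.29, the smallest of the 8 role groups. The largest change was that of Bub1b, which encodes BUBR1, a subunit of the mitotic checkpoint complex, with 260.0 and 263 CPM in the Mettl14 controls and 179.8 and 179 in Mettl14 cKO and a fall of 0.54 ± 0.03 (adjusted p = 9.5e-32). Ttk, the checkpoint kinase MPS1, fell by 0.43 ± 0.05, Mad2l1, which encodes the CDC20 inhibitor MAD2, by 0.31 ± 0.04, and the kinase gene Bub1 by 0.27 ± 0.04. Cdc20 itself, the activator of the anaphase-promoting complex, stood at 85.6 and 89.3 CPM in the Mettl14 controls and 80.2 and 76.9 in Mettl14 cKO and fell by 0.16 ± 0.05 (adjusted p = 0.00569). Bub3, which brings BUB1 and BUBR1 to kinetochores, stood at 116 and 106 CPM in the Mettl14 controls and 101 and 103 in Mettl14 cKO and fell by 0.12 ± 0.04 (adjusted p = 0.0309). For Bub3 a gap of only a few CPM separated the lowest control from the highest cKO library. Bub3 was no longer called without Mettl14 cKO replicate 1 (-0.10, adjusted p = 0.187) or Mettl14 control replicate 1 (-0.06, adjusted p = 0.444), and in 4 fits with another scaling, filter or choice of groups, with adjusted p over all alternatives from 0.00629 to 0.618. With the tested genes held fixed it was also lost without Mettl14 cKO replicate 2 (-0.13, adjusted p = 0.0835). Cdc20 was no longer called without Mettl14 cKO replicate 2 (-0.14, adjusted p = 0.0751) or Mettl14 control replicate 2 (-0.12, adjusted p = 0.133), and under both alternative scalings named above, with adjusted p over all alternatives from 0.000963 to 0.239.

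Kinetochore genes fell further, 5 of 5, with a median log2 fold change of -0.63. Cenpf, a large protein of the outer kinetochore, stood at 1100 and 1095 CPM in the Mettl14 controls and 614 and 617 in Mettl14 cKO and fell by 0.83 ± 0.02 (adjusted p = 1.9e-64). Nuf2 and Ndc80 encode partners in the NDC80 complex, which grips microtubule ends. Nuf2 stood at 75.4 and 75.6 CPM in the Mettl14 controls and 42.7 and 42.3 in Mettl14 cKO and fell by 0.83 ± 0.06 (adjusted p = 3.56e-26), to 56.3% of control. Ndc80 stood at 205 and 199.5 CPM in the Mettl14 controls and 135 and 141 in Mettl14 cKO and fell by 0.55 ± 0.04, a value that reads shared with its transcribed pseudogene could touch. Cenpe, the kinesin that moves chromosomes to the spindle equator, stood at 633 and 632 CPM in the Mettl14 controls and 412 and 406 in Mettl14 cKO and fell by 0.63 ± 0.03. Cenpa, the histone H3 variant that marks centromeres, fell least, by 0.29 ± 0.05 (adjusted p = 2.11e-08). Its controls, at 100.7 and 112 CPM, differed by more than those of the other kinetochore genes in relation to their level.

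All 3 spindle motors and assembly factors fell. Tpx2, the activator of Aurora A in spindle assembly, led with 469.9 and 467 CPM in the Mettl14 controls and 301 and 311 in Mettl14 cKO and a fall of 0.61 ± 0.03 (adjusted p = 6.06e-43). Kif11, the kinesin that pushes spindle poles apart, fell by 0.36 ± 0.03. Kif4, a chromosome-bound kinesin that limits midzone microtubule growth, fell by 0.31 ± 0.04.

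The chromosomal passenger complex held the largest change of all 35 genes, and its 3 genes all fell. Incenp, the scaffold that binds and activates Aurora B (chromosome 19, 9872296 to 9899551, minus strand), stood at 329.8 and 314 CPM in the Mettl14 controls and 112 and 112 in Mettl14 cKO. It fell by 1.52 ± 0.04, to 34.8% of control (adjusted p = 1.52e-75). Aurkb, the kinase of the complex, stood at 36.8 and 33.3 CPM in the Mettl14 controls and 23.7 and 23.4 in Mettl14 cKO and fell by 0.57 ± 0.08 (adjusted p = 4e-10). Birc5, which encodes survivin, the subunit that targets the complex to centromeres, fell by 0.42 ± 0.05. The change of Incenp was more than 0.5 larger on the log2 scale than that of Mki67, the next largest.

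Of the central spindle and cytokinesis genes, 3 of 4 fell. Prc1, the microtubule bundler of the central spindle, stood at 289.7 and 276 CPM in the Mettl14 controls and 198 and 197 in Mettl14 cKO and fell by 0.52 ± 0.03 (adjusted p = 1.38e-30). Kif23, the kinesin subunit of centralspindlin, fell by 0.47 ± 0.04, and Kif20a, the kinesin that carries the passenger complex to the midzone, by 0.21 ± 0.03. Anln, which encodes the actin-binding furrow protein anillin, stood at 337 and 338 CPM in the Mettl14 controls and 338 and 342 in Mettl14 cKO, and these groups overlapped, with a log2 fold change of 0.01 ± 0.03 (adjusted p = 0.843). With TMM factors from abundant genes, Anln was called as a rise (0.09, adjusted p = 0.00531), with adjusted p over all alternatives from 0.00531 to 1.

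All 5 condensin genes fell, whereas the separase gene did not pass the test. Smc4 stood at 646 and 635 CPM in the Mettl14 controls and 413 and 419.8 in Mettl14 cKO and fell by 0.62 ± 0.03 (adjusted p = 4.56e-46), and its ATPase partner Smc2 fell by 0.38 ± 0.03. The condensin I subunits Ncaph, Ncapd2 and Ncapg fell by 0.43 ± 0.05, 0.32 ± 0.03 and 0.30 ± 0.03. Espl1, the separase that cuts cohesin at anaphase, stood at 187 and 186 CPM in the Mettl14 controls and 182 and 178 in Mettl14 cKO. Both cKO libraries lay below both controls, with a log2 fold change of -0.05 ± 0.04 (adjusted p = 0.244); DESeq2 called it as a fall (-0.11, adjusted p = 0.037, over all alternatives 0.037 to 0.874).

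**Figure D3:**
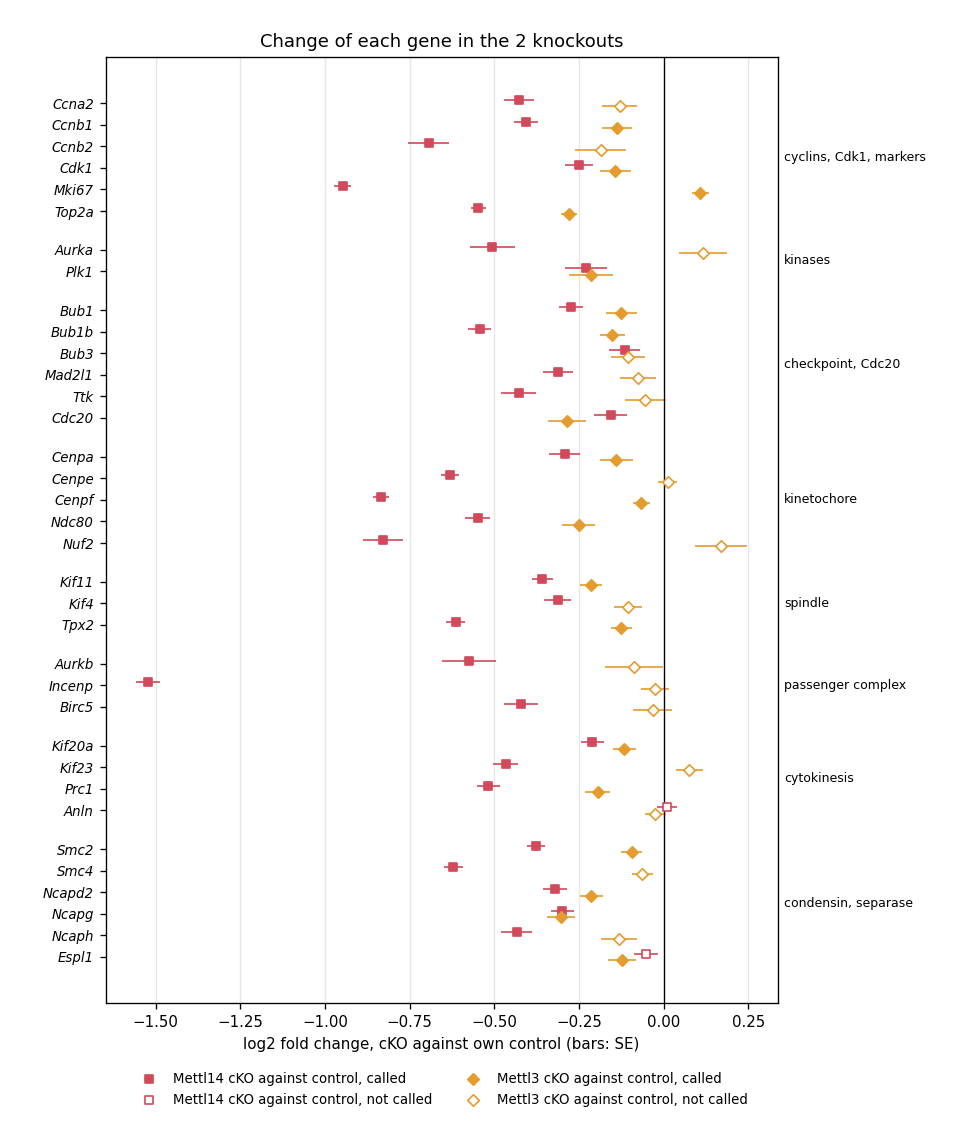
Log2 fold change of each gene in Mettl14 cKO (squares) and Mettl3 cKO (diamonds) against its own control, with bars of 1 SE. Filled symbols passed an adjusted p under 0.05. All 33 filled squares lie left of 0, with Incenp at -1.52, and the diamonds lie between -0.30 and 0.17.

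In Mettl3 cKO 18 of the 35 genes fell, 1 rose and 16 did not pass the test, with a median log2 fold change of -0.12, and none fell by 0.5 or more. For 27 genes both cKO libraries lay below both controls, for 3 above, and for 5 the groups overlapped. Among all tested genes 5.78% fell, 15.1% rose and 24.2% had both cKO libraries below both controls. The share of all genes above both controls was not computed. Among abundant genes 7.05% fell and the median log2 fold change was 0.09. The count depended on the processing: 9 fell by DESeq2, 6 with no filter on low counts, 7 to 11 on leaving out 1 of the 8 libraries in turn, and 29 with upper-quartile scaling. Leaving out a library changes which genes are tested and so the TMM factors; with the tested genes held fixed, the count was 11 to 17, lowest without Mettl3 control replicate 1 or Mettl3 cKO replicate 1. Top2a, Cdc20, Kif11, Ncapd2 and Ncapg fell under every alternative run. The calls over all 21782 tested genes moved with the scaling too. With upper-quartile scaling 2771 of them fell and 1293 rose, against 1260 and 3292 with TMM scaling.

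The 5 genes that fell under every alternative came from 4 of the role groups, and Cdc20 and Ncapg among them overlap a gene on the opposite strand. Ncapg stood at 101 and 100.0 CPM in the Mettl3 controls and 80.1 and 83.1 in Mettl3 cKO, a fall of 0.30 ± 0.04 (adjusted p = 8.56e-10). Cdc20 stood at 52.5 and 53.8 CPM in the Mettl3 controls and 42.2 and 45.0 in Mettl3 cKO and fell by 0.29 ± 0.06 (adjusted p = 2.08e-05), and Top2a stood at 638 and 619 CPM in the Mettl3 controls and 511 and 525 in Mettl3 cKO and fell by 0.28 ± 0.02 (adjusted p = 5.1e-19). For all 3 of these genes both cKO libraries lay below both controls. Kif11 stood at 181 and 180.4 CPM in the Mettl3 controls and 152 and 159 in Mettl3 cKO and fell by 0.22 ± 0.03 (adjusted p = 7.92e-08). Ncapd2 stood at 202 and 199 CPM in the Mettl3 controls and 169.5 and 176 in Mettl3 cKO and fell by 0.21 ± 0.03 (adjusted p = 1.08e-07).

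The other 13 falls were lost under at least 1 alternative. Ndc80, at 63.9 and 66.0 CPM in the Mettl3 controls and 52.2 and 56.9 in Mettl3 cKO, fell by 0.25 ± 0.05 (adjusted p = 2.04e-05), and Prc1, at 129.8 and 130.0 CPM in the Mettl3 controls and 114 and 113 in Mettl3 cKO, by 0.20 ± 0.04 (adjusted p = 1.19e-05). Each of these lost its call under 1 of 23 alternatives. Plk1 stood at 40.6 and 38.2 CPM in the Mettl3 controls and 32.0 and 35.9 in Mettl3 cKO and fell by 0.21 ± 0.07 (adjusted p = 0.011). The falls of Bub1b (0.15 ± 0.04), Cdk1 (0.14 ± 0.05), Cenpa (0.14 ± 0.05), Ccnb1 (0.14 ± 0.04), Tpx2 (0.13 ± 0.03), Bub1 (0.12 ± 0.04) and Espl1 (0.12 ± 0.04) were smaller. So were those of Kif20a (0.12 ± 0.03), Smc2 (0.09 ± 0.03) and Cenpf (0.07 ± 0.03), of which Smc2 and Cenpf turned to log2 fold changes of 0.012 and 0.041 with no filter on low counts.

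Mki67 rose in Mettl3 cKO. It stood at 523 and 531 CPM in the Mettl3 controls and 558 and 578 in Mettl3 cKO, a rise of 0.11 ± 0.03 (adjusted p = 0.000513), and its log2 fold change was -0.0054 with upper-quartile scaling. The call of Mki67 was also lost with TMM factors from abundant genes (0.02) and in a fit of the Mettl3 line alone (0.07). Nuf2 stood at 20.8 and 21.3 CPM in the Mettl3 controls and 23.9 and 23.4 in Mettl3 cKO, with both cKO libraries above both controls but a log2 fold change of 0.17 ± 0.08 that did not pass the test (adjusted p = 0.113). Aurka, at 28.4 and 29.7 CPM in the Mettl3 controls and 31.2 and 31.7 in Mettl3 cKO, had a log2 fold change of 0.12 ± 0.07 (adjusted p = 0.258). None of the 3 passenger complex genes passed the test: Aurkb, Incenp and Birc5 had log2 fold changes of -0.09 ± 0.09, -0.03 ± 0.04 and -0.03 ± 0.06 (edgeR's test, 0 of 3 by DESeq2 as well, and 0 of 3 at an unadjusted p under 0.05). Incenp stood at 85.8 and 82.5 CPM in the Mettl3 controls and 83.6 and 81.7 in Mettl3 cKO, where the groups overlapped, and was called as a fall with upper-quartile scaling (-0.14) and with TMM factors from abundant genes (-0.11).

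The changes in the knockouts were then compared directly, by testing the Mettl14 change minus the Mettl3 change in the same fit. For 25 of the 35 genes this difference was called below 0, for 0 it was called above, and 10 did not pass the test, with a median of -0.30. Called or not, the differences lay between -1.50 and 0.13. Unless another threshold is given, counts and shares of negative or positive differences are of those called. In edgeR's test 0 genes had a positive difference at an unadjusted p under 0.05, and DESeq2 called 0 positive and 28 negative. Among all tested genes 20.5% had a negative and 12.7% a positive difference, and among abundant genes 40.2% had a negative one, with a median of -0.15. With upper-quartile scaling or TMM factors from abundant genes, 17 genes had a negative and 4 a positive difference: Anln, Cdc20, Espl1 and Ncapg. Those same 17 genes kept a negative difference under every alternative run. Over all 21782 tested genes, 2788 had a negative and 4287 a positive difference with upper-quartile scaling. With TMM factors from abundant genes these counts were 2674 and 4460.

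The largest differences were those of Incenp (-1.50 ± 0.06, adjusted p = 1.79e-52), Mki67 (-1.06 ± 0.04, adjusted p = 9.74e-57) and Nuf2 (-0.998 ± 0.10, adjusted p = 7.55e-17). Mki67 moved in opposite directions, as it fell in Mettl14 cKO and rose in Mettl3 cKO under the scaling used. Cenpf (-0.77 ± 0.03), Cenpe (-0.64 ± 0.04), Aurka (-0.62 ± 0.10), Smc4 (-0.56 ± 0.04), Kif23 (-0.54 ± 0.05) and Ccnb2 (-0.51 ± 0.10) also differed by more than 0.5. Of the 17 genes that fell in both knockouts, 10 fell further in Mettl14 cKO by this test. The other 7 were Cdk1, Plk1, Cdc20, Cenpa, Kif20a, Ncapd2 and Ncapg, whose differences lay between -0.15 and 0.13. Of the 15 that fell in Mettl14 cKO and did not pass in Mettl3 cKO, 14 had a negative difference, and the difference of Bub3 was -0.01 ± 0.07 (adjusted p = 0.931).

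By their median, the 35 genes differed more between the control groups than between either knockout and its control. In Mettl14 control 34 of the 35 genes were higher than in Mettl3 control, 0 were lower and Ncapd2 did not pass the test, with a median log2 fold change of 1.03. In edgeR's test 0 were lower at an unadjusted p under 0.05, and DESeq2 called 35 as higher and 0 as lower. Among all tested genes 33.6% were higher and 34.1% lower, and among abundant genes 57.9% were higher, with a median of 0.30. Incenp was higher by 1.94 ± 0.04, Nuf2 by 1.84 ± 0.07, Smc4 by 1.70 ± 0.03 and Ndc80 by 1.64 ± 0.04. Plk1 (0.40 ± 0.06), Kif20a (0.50 ± 0.03) and Anln (0.52 ± 0.03) differed least among the genes called. Ncapd2 stood at 204.6 and 200.6 CPM in Mettl14 control and 202.4 and 198.6 in Mettl3 control, where the groups overlapped. With upper-quartile scaling the difference of Ncapd2 was -0.20 and it was called lower in Mettl14 control. The control libraries also differed as a whole. In Mettl14 control 31803 and 32268 genes had a count, against 40682 and 40752 in Mettl3 control. The TMM factors were 0.834 and 0.840 against 1.14 and 1.15. Ribosomal protein genes held 2.54% and 2.55% of the counts against 1.36% and 1.34%. The knocked-out gene, the starting level, the line and any batch cannot be told apart in the comparison of the knockouts.

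The order of the groups was the same for most of the genes. For 32 of 35, both Mettl14 cKO libraries lay below both Mettl14 controls and above all 4 libraries of the Mettl3 line, beside 16.1% of all tested and 30.2% of abundant genes. Incenp and Nuf2 show this order: Incenp stood at 112.5 and 111.6 CPM in Mettl14 cKO and between 81.7 and 85.8 in the Mettl3 line, and Nuf2 at 42.7 and 42.3 against 20.8 to 23.9. Mki67 was the main departure, since Mettl14 cKO, at 468.6 and 457.5 CPM, lay below all 4 Mettl3-line libraries. Ncapd2 in Mettl14 cKO lay below all 4 of them as well, at 159.1 and 165.2 CPM.

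The 35 genes were also set against other abundant genes within each fit. A change of scaling shifts both medians alike, so their difference is the same under every scaling by construction. With no filter and by DESeq2 it also stayed the same to the digits given here. The ends of the ranges below come from leaving out a library of a group compared. The median of the 35 minus the median of abundant genes was -0.35 in Mettl14 cKO, with a range of -0.36 to -0.32 over 23 alternatives. It was -0.21 in Mettl3 cKO (-0.22 to -0.19), -0.15 for the difference between the knockouts (-0.17 to -0.12 over 22 alternatives) and 0.73 between the controls (0.73 to 0.76). Upper-quartile scaling shifted the median of all genes by -0.11 in Mettl3 cKO, 0.16 for the difference and -0.22 between the controls, and TMM factors from abundant genes shifted it by 0.17 for the difference and -0.31 between the controls.

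Sums over marker lists also differed between the groups. The summed level of the 35 genes was 10850 and 10690 CPM in the Mettl14 controls, 7448 and 7456 in Mettl14 cKO, 5082 and 5026 in Mettl3 control and 4685 and 4761 in Mettl3 cKO. Embryonic stem cell markers summed to 2689 and 2661, 2009 and 2034, 1065 and 1078, and 1025 and 1012 CPM in the same order. In Mettl14 cKO 8 of 10 fell and 1 rose, beside 22.4% and 18.0% of all tested genes. In Mettl3 cKO 4 of them fell and 2 rose, beside 5.78% and 15.1%. Among abundant genes 40.9% fell in Mettl14 cKO and 7.05% in Mettl3 cKO. The 12 fibroblast markers summed to 1361 and 1337, 2331 and 2347, 7067 and 6838, and 8289 and 8220 CPM. Of the 11 fibroblast markers tested, 10 rose in Mettl14 cKO, beside 18.0% of all tested genes, and 6 rose and 1 fell in Mettl3 cKO, beside 15.1% and 5.78%. Vim was the most abundant of them in the Mettl14 line and Col1a1 in the Mettl3 line, whereas Lum stayed below 0.4 CPM as a mean of any group and Dcn at or below 4.22. The sum of the 35 genes per unit of stem cell marker sum was 4.04 and 4.02 in Mettl14 control, 3.71 and 3.67 in Mettl14 cKO, 4.77 and 4.66 in Mettl3 control and 4.57 and 4.71 in Mettl3 cKO. The share of mitochondrial mRNA was 0.851% and 0.866% in the Mettl14 controls, 0.638% and 0.641% in Mettl14 cKO, 0.590% and 0.630% in Mettl3 control and 0.745% and 0.799% in Mettl3 cKO. Between the controls, 9 of 10 stem cell markers were higher in Mettl14 control and 1 was lower. Of the 11 fibroblast markers tested, 10 were lower there and 0 higher. Among all tested genes 33.6% were higher and 34.1% lower, and among abundant genes 57.9% were higher. The part of these features in the changes of the 35 genes was not tested.

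**Figure D4:**
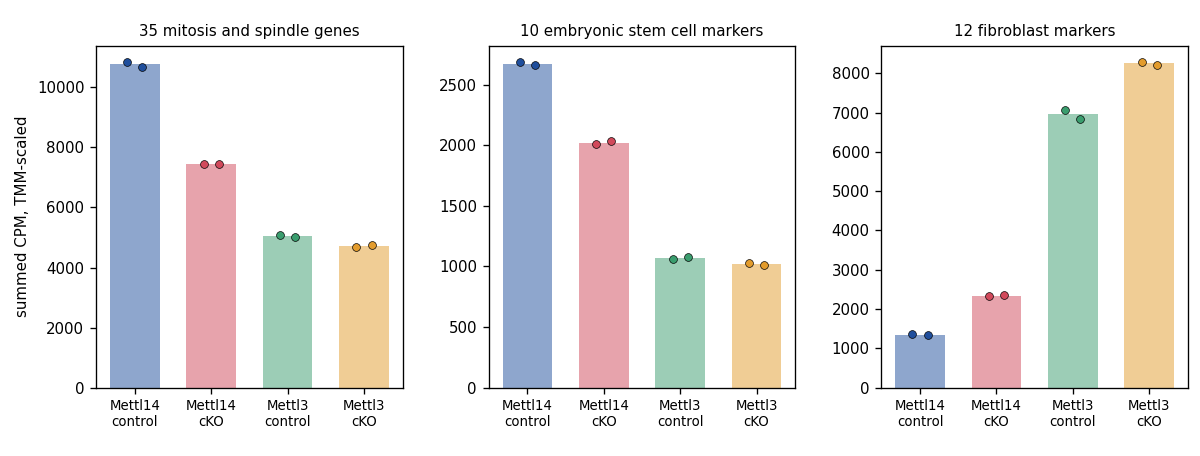
Summed CPM of the 35 genes, of 10 embryonic stem cell markers and of 12 fibroblast markers, with bars for the group mean and a point for each library. The first 2 sums fall from Mettl14 control through Mettl14 cKO to the Mettl3 line, and the fibroblast sum rises in that order.

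Other genes of mitosis and of the wider cell cycle, taken from 10 lists chosen by function, also fell for the most part in Mettl14 cKO. Of 184 such genes tested, 130 fell (70.7%) and 18 rose, with a median log2 fold change of -0.28. The share that fell was 94.3% of the 35 genes, 22.4% of all tested and 40.9% of abundant genes, and 18.0% of all tested and 25.7% of abundant genes rose. In Mettl3 cKO 24 of the 184 fell (13%) and 30 rose (16.3%), with a median of 0.01. There 51.4% of the 35 genes fell, beside 5.78% of all tested and 7.05% of abundant genes, while 15.1% and 29.6% of these rose. The share of rises among the 184 was thus near that of all tested genes and below that of abundant ones. These shares are the background for each list that follows.

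The list of G2/M kinases, phosphatases and cyclin partners included strong falls in Mettl14 cKO, where 13 of 17 fell and 2 rose. Arpp19, whose product inhibits the phosphatase PP2A-B55 once phosphorylated, fell by 1.67 ± 0.05, and Ppp2r2a, a B55 subunit of that phosphatase, by 1.15 ± 0.04. Pkmyt1, the kinase that restrains Cdk1, rose by 0.34 ± 0.10 and Ccnf by 0.14 ± 0.04. In Mettl3 cKO 4 of the 17 rose and 3 fell, among them Pkmyt1 (0.42) and the CDK-binding Cks1b (0.36) up and the kinase genes Melk (-0.24) and Nek2 (-0.17) down.

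Of the 12 transcription factor genes that bind CHR or CCAAT elements or work with them, 8 fell and 1 rose in Mettl14 cKO. Nfyb, a subunit of the CCAAT-binding NF-Y, fell by 0.86 ± 0.05, and E2f4, which acts in the repressor complex DREAM, by 0.60 ± 0.05. Lin54, the CHR-binding subunit of MuvB, rose by 0.20 ± 0.05. In Mettl3 cKO 3 rose and 2 fell: Foxm1 (0.31) and E2f4 (0.18) were among the rises, and Mybl2, which encodes B-MYB (-0.19), and Rbl1 (-0.28) were the falls. Foxm1 itself fell by 0.72 ± 0.07 in Mettl14 cKO.

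Genes of chromosome cohesion and separation also fell for the most part in Mettl14 cKO. Of 16 cohesin genes 11 fell and 1 rose, with Smc3 at -1.22 ± 0.03 and Rad21, the subunit cut by separase, at -0.85 ± 0.03, and with the loader Mau2 at 0.29 ± 0.04. Of 19 genes of the anaphase-promoting complex and its partners 14 fell and 1 rose, with the E2 enzyme gene Ube2c at -0.87 ± 0.07, the subunit gene Anapc5 at -0.46 ± 0.03 and Anapc7 at 0.23 ± 0.06. The other condensin subunits, those of condensin II, fell in 3 of 3 cases, with Ncaph2 at -0.27 ± 0.04 and Ncapd3 at -0.21 ± 0.04. In Mettl3 cKO Rad21 (-0.26) and Ncapd3 (-0.18) fell, each as the 1 fall of its list, while Pds5a (0.11) and Mau2 (0.13) rose. None of the 19 genes of the anaphase-promoting complex list fell there and 3 rose, such as Anapc5 (0.26) and Anapc15 (0.24).

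Kinetochore genes beyond the 35 fell in 25 of 38 cases and rose in 2 in Mettl14 cKO. Spc25, a further NDC80 complex subunit, fell by 0.92 ± 0.05, whereas the CENP-O and CENP-T genes rose, Cenpo by 0.35 ± 0.08 and Cenpt by 0.22 ± 0.05. In Mettl3 cKO 5 rose and 5 fell, with Cenpb (0.44) and Zwint (0.15) among the rises and Mad1l1 (-0.22) and Zwilch (-0.12) among the falls. Of 29 other motors and spindle factors 24 fell and 2 rose in Mettl14 cKO, with the kinesin genes Kif20b at -0.65 ± 0.03 and Kif15 at -0.70 ± 0.03 and, among the rises, Kif18b at 0.20 ± 0.05 and Kifc1 at 0.11 ± 0.04. In Mettl3 cKO 5 of them fell, such as Hmmr (-0.21) and Dlgap5 (-0.20), and Haus6 (0.13) rose.

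All 8 tested genes of the passenger complex and cytokinesis list fell in Mettl14 cKO. Cdca8, which encodes borealin, the passenger complex subunit missing from the 35 genes, fell by 0.85 ± 0.05, and Cit, a midbody kinase gene, by 0.61 ± 0.04. In Mettl3 cKO 2 of the 8 fell, Ect2 (-0.19) and Cep55 (-0.17). Of 18 centrosome genes 12 fell and 1 rose in Mettl14 cKO, with Cdk5rap2 at -0.56 ± 0.04 and Pcm1 at -0.35 ± 0.03 and a rise of Tubgcp3 (0.10). In Mettl3 cKO 4 centrosome genes fell and 3 rose, with Pcnt (-0.19) and Ninl (-0.24) down and Tubgcp2 (0.21) and Cep152 (0.16) up.

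Genes of the G1/S step divided more evenly: 12 of 24 fell (50%) and 8 rose in Mettl14 cKO. Beside this share of falls stand 40.9% of abundant genes and 70.7% of the 184, which include these 24. The cyclin gene Ccnd2 rose by 0.68 ± 0.05 and Cdkn1a, which encodes the CDK inhibitor p21, by 0.49 ± 0.05, while Ccne1 fell by 0.81 ± 0.06 and E2f8, a repressor of cell cycle genes, by 1.00 ± 0.09. In Mettl3 cKO 9 rose and 1 fell. Ccnd2 (0.35) and Cdkn1a (0.28) rose there too, and Ccnd3 (-0.23) was the fall.

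**Figure D5:**
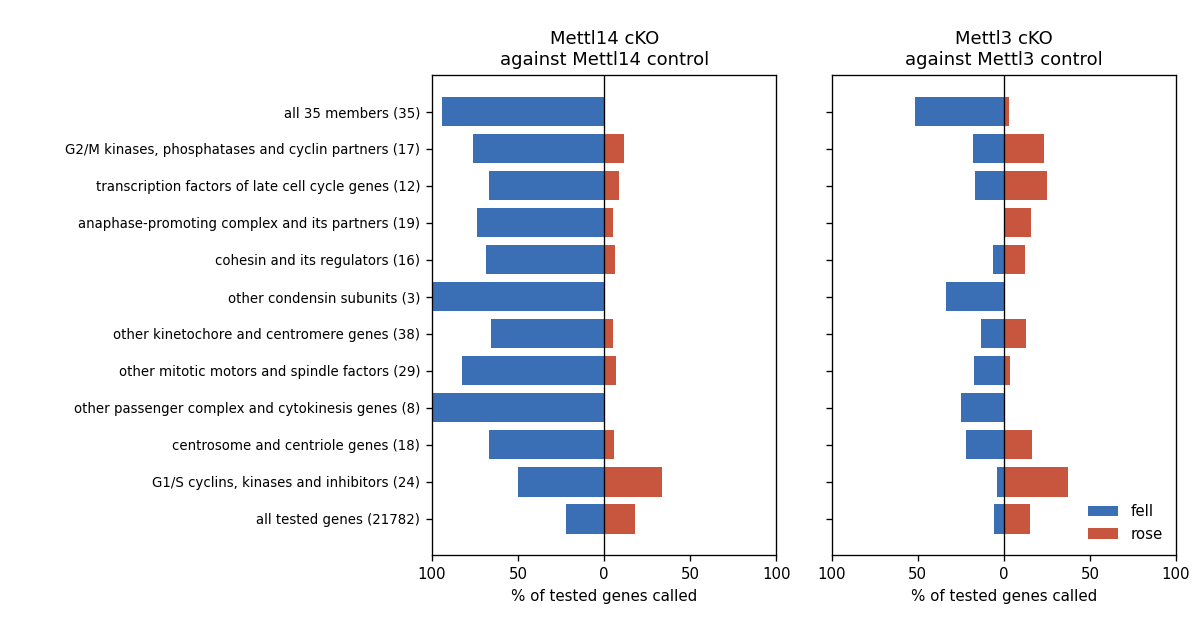
Percent of tested genes that fell (left of 0) and rose (right of 0) in Mettl14 cKO and in Mettl3 cKO, for the 35 genes, the 10 other lists and all 21782 tested genes, with the number tested in brackets. In Mettl14 cKO the bar of falls is 94.3% for the 35 genes and 22.4% for all genes, and in Mettl3 cKO it is 51.4% and 5.78%.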

How the data were processed

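Nuclear RNA of 8 libraries was analysed as raw counts of reads per gene, deposited by the authors as 1 table per library with 54446 genes. Per the submitters' processing notes, the authors' counts were made with CASAVA, Trimmomatic 0.38, HISAT2 2.1.0 and HTSeq on mm10; no annotation release, strand setting or handling of reads with several matches is given in the sources used here. Gene IDs were matched without version to GENCODE M21. edgeR 4.0.16 in R 4.3.3 kept 21782 genes (filterByExpr, minimum count 10), scaled by TMM and fitted all 8 libraries with 4 group means and robust glmQLFit (4 residual degrees of freedom). The threshold was an adjusted p (Benjamini-Hochberg, over all tested genes) of 0.05. CPM use TMM-scaled library sizes.

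Libraries of a group correlated at r of 0.989 to 0.990 (log2 CPM) and differed by more than sampling noise (by a chi-square of 1.43 to 2.06 for each degree of freedom), and each counted as 1 sample. Copies were sought with BLAST 2.17.0 (at least 90% identity over 200 bases).

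The 35 genes and all lists, that is role groups, 10 pathway lists and markers of stem cells, fibroblasts, primitive endoderm and trophectoderm, were chosen with earlier results of these data known. By the rule for named genes, all 35 may be named. From each pathway list up to 2 called genes per direction and knockout with the smallest p are named, with Foxm1 and the targeted genes beside them. Of the genes so chosen, 1 is not reported here, and it stays in the counts of its list. Alternatives were RLE and upper-quartile scaling, no filter, DESeq2 1.42.0, fits of the compared groups only, a replicate block and leaving out each library. Chosen after seeing the data were TMM factors from the abundant genes alone (mean log2 CPM 3 or more), and leaving out libraries with the tested genes fixed.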

Additional observations from a re-analysis of the deposited data

Results flagged for a closer look

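For 25 of the 35 genes the change in Mettl14 cKO differed from the change in Mettl3 cKO, by edgeR's quasi-likelihood test of the difference itself (adjusted p under 0.05 over all tested genes). The values below are the Mettl14 change minus the Mettl3 change on the log2 scale, and all are negative. Among all tested genes 20.5% had a negative difference, and among abundant genes 40.2%. Of the 25, 17 were called under every alternative, and Ccna2, Ccnb1, Bub1, Mad2l1, Ndc80, Kif11, Kif4 and Ncaph were not. Bub1 and Kif11 turned to small positive values that were not called with upper-quartile scaling (0.0082 and 0.014) and with TMM factors from abundant genes (0.021 and 0.027). Among cyclins and markers of proliferation they were -0.30 for Ccna2, -0.27 for Ccnb1, -0.51 for Ccnb2, -1.06 for Mki67 and -0.27 for Top2a. Among kinase and checkpoint genes they were -0.62 for Aurka, -0.15 for Bub1, -0.39 for Bub1b, -0.24 for Mad2l1 and -0.37 for Ttk. Kinetochore genes gave -0.64 for Cenpe, -0.77 for Cenpf, -0.30 for Ndc80 and -0.998 for Nuf2. Spindle and passenger complex genes gave -0.14 for Kif11, -0.21 for Kif4, -0.49 for Tpx2, -0.49 for Aurkb, -1.50 for Incenp and -0.39 for Birc5. Genes of cytokinesis and condensin gave -0.54 for Kif23, -0.32 for Prc1, -0.28 for Smc2, -0.56 for Smc4 and -0.30 for Ncaph.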

How the results depend on the processing

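In Mettl14 cKO the count of falls stayed between 30 and 34 of 35 over 23 alternatives, and 30 genes fell under each of them. The exceptions were Plk1, Bub3 and Cdc20, and 1 gene, Anln, was called as a rise with TMM factors from abundant genes. Its median moved to -0.38 with upper-quartile scaling, -0.48 by DESeq2, -0.39 in a fit of the compared groups only and -0.34 with TMM factors from abundant genes.

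In Mettl3 cKO the count of falls was 29 with upper-quartile scaling, 28 with TMM factors from abundant genes, 6 with no filter and 9 by DESeq2. The count of rises was 0 with upper-quartile scaling, with TMM factors from abundant genes and in a fit of the compared groups only, and 5 with no filter. The median was -0.24, -0.21 and -0.016 with upper-quartile scaling, TMM factors from abundant genes and no filter. Leaving out 1 library in turn gave 7 to 11 falls, 1 to 3 rises and a median from -0.096 to -0.064, and 11 to 17 falls and 1 to 2 rises with the tested genes fixed. Mki67 turned to -0.0054 with upper-quartile scaling. Cenpe, not called with TMM scaling of all genes, was called as a fall with it (-0.10) and with TMM factors from abundant genes (-0.074). With no filter, Cenpf was 0.041 and Smc2 0.012. Over all 21782 tested genes, 2771 fell and 1293 rose with upper-quartile scaling. With TMM factors from abundant genes 2305 of all tested genes fell and 1641 rose.

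For the difference between the knockouts, upper-quartile scaling and TMM factors from abundant genes each gave 4 positive differences. The median was -0.14 and -0.13 under these scalings, -0.41 with no filter and -0.37 by DESeq2. Bub1 was 0.0082 and 0.021 and Kif11 0.014 and 0.027 under these scalings. Over all tested genes, 4287 and 4460 had a positive and 2788 and 2674 a negative difference under these scalings.

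Between the controls, Ncapd2 was -0.20 and -0.29 under these scalings and was then the 1 gene called lower in Mettl14 control. The median was 0.81 with upper-quartile scaling, 0.72 with TMM factors from abundant genes, 1.17 with no filter, 1.11 by DESeq2 and 1.07 to 1.09 when 1 library was left out, against 1.02 to 1.05 with the tested genes fixed.

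Deviations of libraries with the same replicate number correlated at 0.0107 in the Mettl14 line and 0.0177 in the Mettl3 line, so the numbers were not taken as pairs. With the replicate block, the falls were 33 in Mettl14 cKO and 18 in Mettl3 cKO, and 25 differences were negative, the same counts as without it. Removing a library from a group leaves 1 library there, which is assumed to vary like the other groups. Another scaling shifts the log2 fold changes of all genes in a comparison nearly alike. The filter and libraries left out change the genes tested and so the TMM factors. The cause of the other shifts was not tested.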

Other observations

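Besides fibroblasts, cultures of embryonic stem cells can hold cells of primitive endoderm and trophectoderm. Primitive endoderm markers summed to 127 and 132 CPM in the Mettl14 controls, 133 and 134 in Mettl14 cKO, 138 and 137 in Mettl3 control and 107 and 104 in Mettl3 cKO. Of 7 tested, 0 rose and 0 fell in Mettl14 cKO, and 1 rose and 1 fell in Mettl3 cKO, by edgeR's quasi-likelihood test. Pdgfra is in this list and in the fibroblast list. Trophectoderm markers summed to 271 and 261 CPM in the Mettl14 controls, 334 and 331 in Mettl14 cKO, 207 and 198 in Mettl3 control and 234 and 218 in Mettl3 cKO. Of 7 tested, 2 rose and 3 fell in Mettl14 cKO, and 3 rose and 0 fell in Mettl3 cKO. Among all tested genes 18.0% rose and 22.4% fell in Mettl14 cKO, and 15.1% rose and 5.78% fell in Mettl3 cKO. The part of these sums in the changes of the 35 genes was not tested.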
